A study of Mus musculus with 12 samples.

Results

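The T cell receptor (TCR) repertoire of the tumor-draining lymph node (tdLN) was compared between mice given αCSF1R and mice given control IgG. The members were all clonotypes listed for these 2 libraries, a clonotype being 1 nucleotide sequence of CDR3 with its assigned V and J regions within a chain. There were 197970 clonotypes in the αCSF1R library and 121125 in the control IgG library, of 1502315 clonotypes in the 12 libraries of the series. The series sampled CD8+ T cells from the tumor, the spleen and the tdLN of mice with oral squamous carcinoma of the Q1-2 line, a mouse line derived from a tongue tumor, with 1 library for each tissue and treatment. The 4 treatments were control IgG, αCSF1R (an antibody that blocks the CSF-1 receptor of macrophages), IL-10-Fc (interleukin-10 on an antibody Fc) and BF10 (the αCSF1R antibody fused to interleukin-10). The labels give all mice as wild type, all agents at an equivalent dose of 30 mg/kg in 3 doses at intervals of 3 days, cells selected with CD8 beads, cells of 3 mice mixed in each library, and 100 ng of RNA per library. Each treatment thus had 1 pooled tdLN library. No comparison below has replicates or a p-value, a difference between mice cannot be told apart from a difference between treatments, and the intervals are 95% intervals that cover counting error only.

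A TCR is a pair of chains, α with β on most T cells and γ with δ on the rest. Each chain is assembled in the developing T cell from a V and a J gene segment, with a D segment in β and δ, and bases are removed and added where the segments join. The joined stretch, CDR3, touches the antigen, and it differs between most cells, so that a CDR3 carried by many transcripts marks a clone or a receptor that is assembled again and again. The libraries were primed from the constant regions of the 4 chains (TRAC, TRBC, TRGC and TRDC for α, β, γ and δ). Each transcript carried a unique molecular identifier (UMI), so that reads of 1 molecule are counted as 1. A cell can yield several UMIs, which makes the intervals too narrow as statements on cells, and fewer cells of a kind and less receptor RNA per cell cannot be told apart in a bulk library. The amounts below are shares of the UMIs of a chain with at least 3 reads, unless stated otherwise.

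The αCSF1R library held 290776 UMIs with at least 3 reads and the control IgG library 238672, but the control library was read more deeply. Of these UMIs, 9.94% in the αCSF1R library and 38.7% in the control library had at least 7 reads. The same share was 8.00% in the tdLN library of BF10 and 33.5% in that of IL-10-Fc, so that the 2 treatments that contain the CSF1R antibody had the shallower libraries. The β chain took 72.4% of UMIs with αCSF1R (210616 UMIs) and 52.2% with control IgG (124488 UMIs), and the α chain took 22.6% (65745 UMIs) and 42.6% (101598 UMIs). There were 0.312 TRAC UMIs per TRBC UMI with αCSF1R, 0.816 with control IgG, 0.274 with BF10 and 0.741 with IL-10-Fc, which splits the 4 libraries as the read coverage does. Shares were therefore taken within a chain and repeated with UMIs of at least 7 reads, but the part of read coverage in the differences below was not tested. The γ and δ chains together made up 4.96% of UMIs with αCSF1R and 5.27% with control IgG, and with at least 7 reads 5.53% and 5.38%. These chains belong to γδ T cells, most of which lack the CD8 heterodimer of conventional cytotoxic T cells, and the files hold no CD8 transcript by which the label of the cells could be checked.

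Usage of the β chain V segments (TRBV) was close between αCSF1R and control IgG. Of the 22 TRBV segments with at least 200 UMIs over both libraries, 2 (9.09%) passed the fold limit, that is, the lower of the 2 shares was at most 0.8 of the higher one. Trbv23 took 0.910% of TRBC UMIs with αCSF1R and 0.705% with control IgG, a ratio of 1.29 (1.19 to 1.4), and the ratio was 1.57 with at least 7 reads but 1.202, inside the fold limit, without clonotypes of at least 10 UMIs. Trbv24, which the annotation lists as a pseudogene, took 0.116% and 0.168%, a ratio of 0.693 (0.576 to 0.833), 0.741 with at least 7 reads and, inside the fold limit, 0.845 with each clonotype counted once. The 2 segments lie next to each other on chromosome 6 of GRCm38 (Trbv23 at 41216073 to 41216526, Trbv24 at 41218091 to 41218557), and both are among the least used. In the other treatments, Trbv23 took 0.795% with BF10 and 0.765% with IL-10-Fc, between the αCSF1R and control values. Trbv24 took 0.0975% with BF10 and 0.115% with IL-10-Fc, so that the control library stood highest for this segment.

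**Figure D1:**
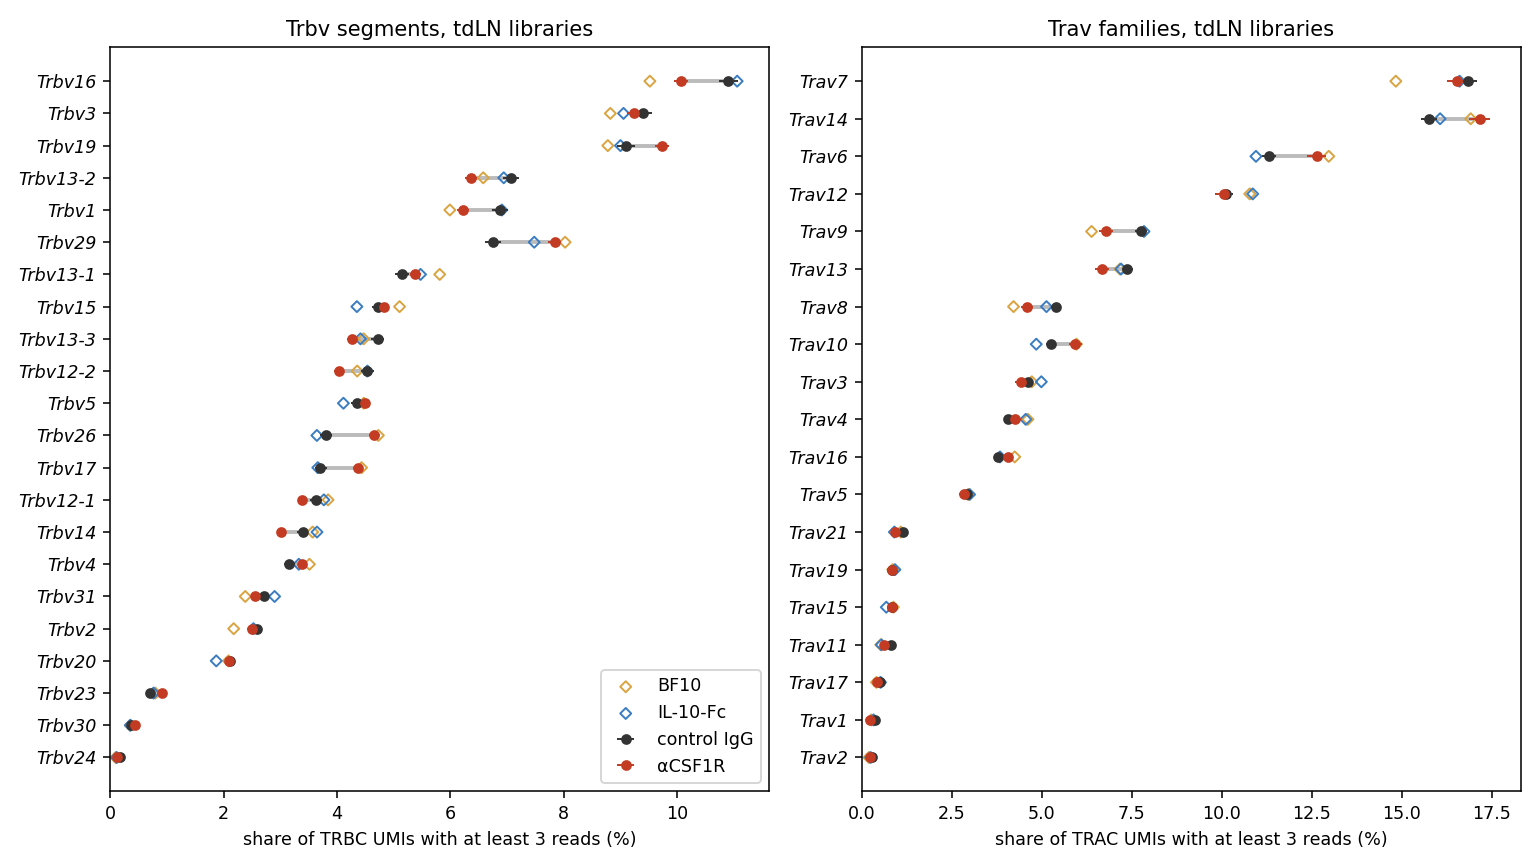
Share of TRBC UMIs (%) taken by each TRBV segment and share of TRAC UMIs (%) taken by each TRAV family in the tdLN libraries of αCSF1R and control IgG (filled points with 95% Wilson intervals, joined by a bar) and of BF10 and IL-10-Fc (open diamonds). The paired points lie close together for most segments, and the largest distances on the scale of the plot are those of frequently used segments such as Trbv29 (7.84% against 6.76%) and Trav14 (17.2% against 15.7%).

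Among the segments that each took over 1% of the chain, the largest ratio was that of Trbv26, at 4.66% with αCSF1R and 3.81% with control IgG (ratio 1.22, 1.18 to 1.27). With at least 7 reads it reached 5.34% and 4.14%, a ratio of 1.29. Trbv17 took 4.37% and 3.71% (ratio 1.18, 1.14 to 1.22), and 5.61% and 4.11% with at least 7 reads (1.37). Both segments were also higher with BF10 (4.73% for Trbv26 and 4.43% for Trbv17) than with IL-10-Fc (3.65% and 3.66%), the split that the read coverage has as well. Trbv29 took 7.84% with αCSF1R and 6.76% with control IgG (1.16, 1.13 to 1.19), and its ratio was 1.05 with at least 7 reads. Trbv30 had a ratio of 1.18 (1.06 to 1.32) and one of 1.04 with at least 7 reads, so that both ratios lay nearer to 1 once UMIs of few reads were left out. Trbv19, among the most used segments, took 9.74% and 9.10% (1.07), and Trbv4 had the same ratio of 1.07.

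The segments used less with αCSF1R were many and differed little. Trbv16, the segment with the largest share in both libraries, took 10.1% with αCSF1R and 10.9% with control IgG, a ratio of 0.923 (0.905 to 0.942) that was 0.830 with at least 7 reads. Trbv13-2 took 6.36% and 7.07% (0.900), Trbv1 took 6.22% and 6.88% (0.904), and Trbv13-3 took 4.26% and 4.71% (0.904). Trbv14 and Trbv12-2 had the lowest ratios of the segments above 1% of the chain, 0.887 and 0.892, and Trbv12-1 and Trbv31 stood at 0.933 and 0.945. Of the 9 segments whose interval lay below 1, all 9 were also below 1 with at least 7 reads, and of the 8 whose interval lay above 1, 7 were also above 1, the exception being Trbv13-1 (1.05 and 0.987). For the remaining 5 segments (Trbv2, Trbv3, Trbv20, Trbv15 and Trbv5) the interval held 1. Over the 22 segments, the median size of the log2 ratio was 0.13 between αCSF1R and control IgG, 0.08 between αCSF1R and BF10 and 0.07 between IL-10-Fc and control IgG, pairs that share a library with the first. It was 0.14 between αCSF1R and IL-10-Fc, 0.13 between BF10 and control IgG and 0.09 between BF10 and IL-10-Fc.

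β chain J segments (TRBJ) form 2 clusters, Trbj1 and Trbj2, each ahead of its own constant region. None of the 12 TRBJ segments (0%) passed the fold limit, but those of the first cluster were used more with αCSF1R. Trbj1-3 took 5.89% with αCSF1R and 5.15% with control IgG (1.14, 1.11 to 1.18), Trbj1-6 took 3.02% and 2.71% (1.12), Trbj1-4 took 7.42% and 6.66% (1.11), and Trbj1-1 took 9.31% and 8.52% (1.09). Trbj1-2 had a ratio of 1.03 and Trbj1-5 one of 0.948, so that 5 of the 6 Trbj1 segments were above 1. In the second cluster Trbj2-7, the most used J segment (chromosome 6, 41543810 to 41543856), took 19.7% and 21.6% (0.912, 0.899 to 0.924), Trbj2-2 stood at 0.921 and Trbj2-4 at 0.938. Trbj2-1, Trbj2-3 and Trbj2-5 had ratios between 0.997 and 1.02 with intervals that held 1.

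The Trbj1 cluster as a whole took 33.9% of TRBC UMIs with αCSF1R (33.6% to 34.1%) and 31.2% with control IgG (31.0% to 31.5%). BF10 stood at 34.5% and IL-10-Fc at 30.9%, so that the αCSF1R library was nearer to BF10 and the control library nearer to IL-10-Fc. The difference did not shrink when UMIs of few reads were left out, and with at least 7 reads it was 35.6% against 31.7% (BF10 36.2%, IL-10-Fc 31.5%). The Trbj1 share itself rose with the read minimum in each of the 4 libraries. That minimum does not make coverage equal, as it kept 10.4% of TRBC UMIs with αCSF1R and 40.9% with control IgG. Counting each clonotype once gave 33.5% and 31.3%. The Trbj1 share was higher with αCSF1R within 18 of the 22 TRBV segments, with an interval above 1 in 15 of them and below 1 in 1, Trbv17 (21.3% against 24.3%). Trbv23 had the largest ratio (32.3% against 26.4%, 1.22) and Trbv16 the next (31.0% against 27.1%, 1.14). Over the 12 segments, the median size of the log2 ratio was 0.11 between αCSF1R and control IgG, 0.02 between αCSF1R and BF10 and 0.03 between IL-10-Fc and control IgG. It was 0.12 between BF10 and control IgG and 0.10 between BF10 and IL-10-Fc, but only 0.05 between αCSF1R and IL-10-Fc. The 2 libraries with the higher Trbj1 share were the 2 of low read coverage and high β chain share, and the part of either in the J usage was not tested.

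**Figure D2:**
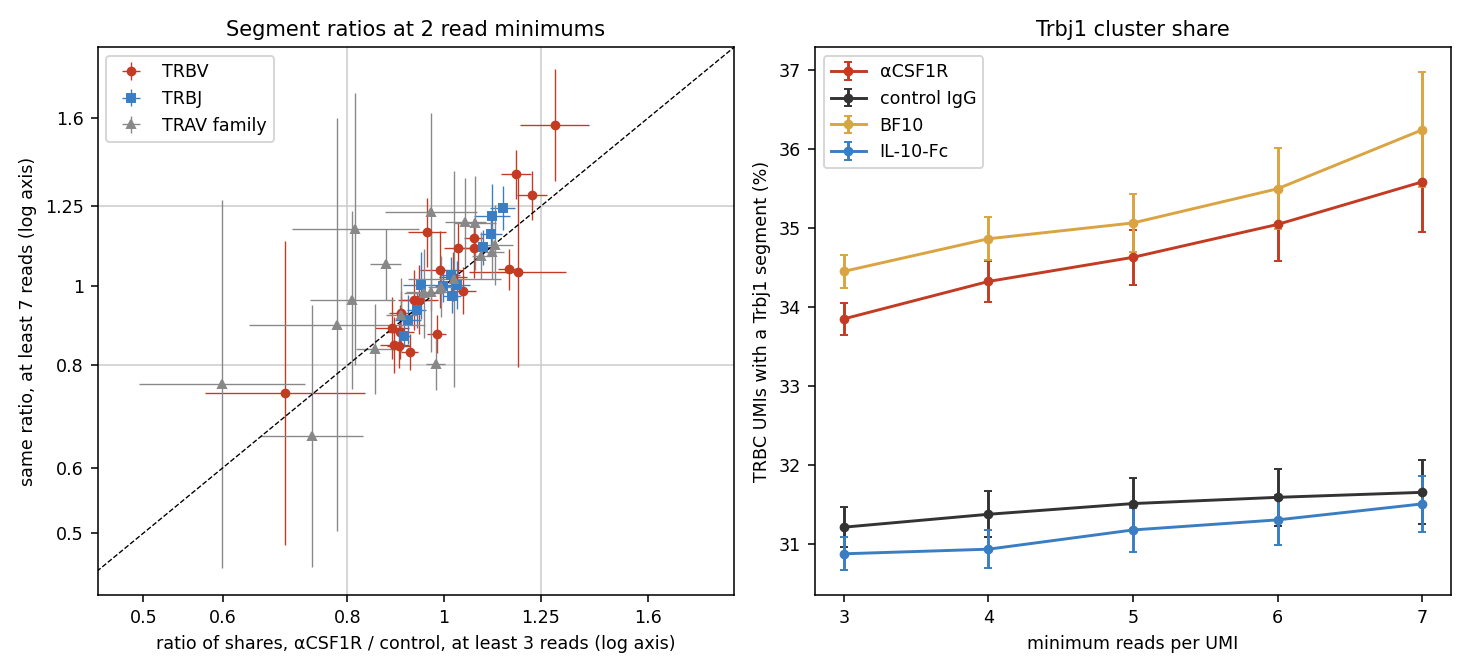
Left, ratio of shares (αCSF1R over control IgG, log axes) of each TRBV segment, TRBJ segment and TRAV family with at least 3 reads per UMI (horizontal) and with at least 7 reads (vertical), with 95% intervals, a dashed line of equality and grey lines at the fold limit. Right, share of TRBC UMIs (%) with a Trbj1 segment against the minimum number of reads in the 4 tdLN libraries, which stays apart at each minimum (33.9% against 31.2% at 3 reads and 35.6% against 31.7% at 7 reads for αCSF1R and control IgG).

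In the α chain, V genes of the mouse lie in repeated blocks with near-identical copies (names ending in d or n), which reads cannot always separate, so that usage was taken by V family (TRAV). Of the 19 families with at least 200 UMIs, 3 (15.8%) passed the fold limit, all with lower shares with αCSF1R and all little used. Trav1 took 0.221% of TRAC UMIs with αCSF1R and 0.368% with control IgG (0.599, 0.495 to 0.726). Trav11 took 0.605% and 0.822% (0.737, 0.654 to 0.830), and Trav2 took 0.213% and 0.273% (0.781, 0.638 to 0.957). Trav1 and Trav11 are the V families of the semi-invariant α chains described further on. With at least 7 reads the 3 ratios were 0.759, 0.656 and 0.897. Trav11 no longer passed the limit when clonotypes with at least 10 UMIs were left out (0.868), among clonotypes with at least 2 UMIs (0.898) or with each clonotype counted once (0.899). Trav21 (0.809) and Trav17 (0.815) followed, and Trav17 had a ratio of 1.17 with at least 7 reads.

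The families with the highest ratios were frequent ones. Trav10 took 5.92% with αCSF1R and 5.26% with control IgG (1.13, 1.08 to 1.17), Trav6 took 12.6% and 11.3% (1.12), and Trav14 took 17.2% and 15.7% (1.09). Trav16 stood at 1.07 and Trav4 at 1.05, and all 5 of these families stayed above 1 with at least 7 reads. None of the 40 α chain J segments (TRAJ) with at least 200 UMIs (0%) passed the fold limit. Traj39 came nearest, at 3.24% and 2.60% (1.24, 1.18 to 1.32), and its ratio was 1.42 with at least 7 reads. Traj56 (1.15), Traj9 (1.14), Traj6 (1.098) and Traj28 (1.09) followed. At the other end stood Traj58 (0.811% and 1.005%, ratio 0.807), Traj33 (0.890), Traj50 (0.896), Traj5 (0.910) and Traj18 (0.910), of which Traj33 and Traj18 are the J segments of the same semi-invariant chains.

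CDR3 length in the αβ chains was almost the same with both treatments. The mean length in TRBC was 13.82 residues with αCSF1R (SD 1.73 over UMIs) and 13.83 with control IgG (SD 1.65), a difference of -0.00940 residues (-0.0212 to 0.00238). These values include a few UMIs with very long listed TRBC CDR3s, up to 120 residues with αCSF1R and 118 with control IgG. Their part in the SDs and the interval was not tested. In TRAC the mean length was 13.52 (SD 1.34) and 13.51 (SD 1.35), a difference of 0.00691 residues. The most frequent length was 14 residues in both chains and both libraries. The length whose share differed most was 15 residues in TRBC (20.5% and 20.9%) and 13 residues in TRAC (28.6% and 29.2%). Bases that the germline V and J segments do not account for, that is, added bases and any D segment, averaged 9.68 per TRBC UMI with αCSF1R and 9.79 with control IgG, and 3.27 and 3.32 per TRAC UMI. In the TRAC chain 13.8% and 13.9% of UMIs had no such base.

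The γδ chains differed in length. In TRGC, 61.3% of UMIs had a CDR3 of 13 residues with αCSF1R and 46.7% with control IgG, and in TRDC, 52.5% and 37.1% had 17 residues. UMIs without any base outside the germline segments made up 56.1% of TRGC with αCSF1R and 41.9% with control IgG. TRDC held a mean of 14.4 and 16.8 such bases. The 2 lengths are those of the 2 clonotypes described next.

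**Figure D3:**
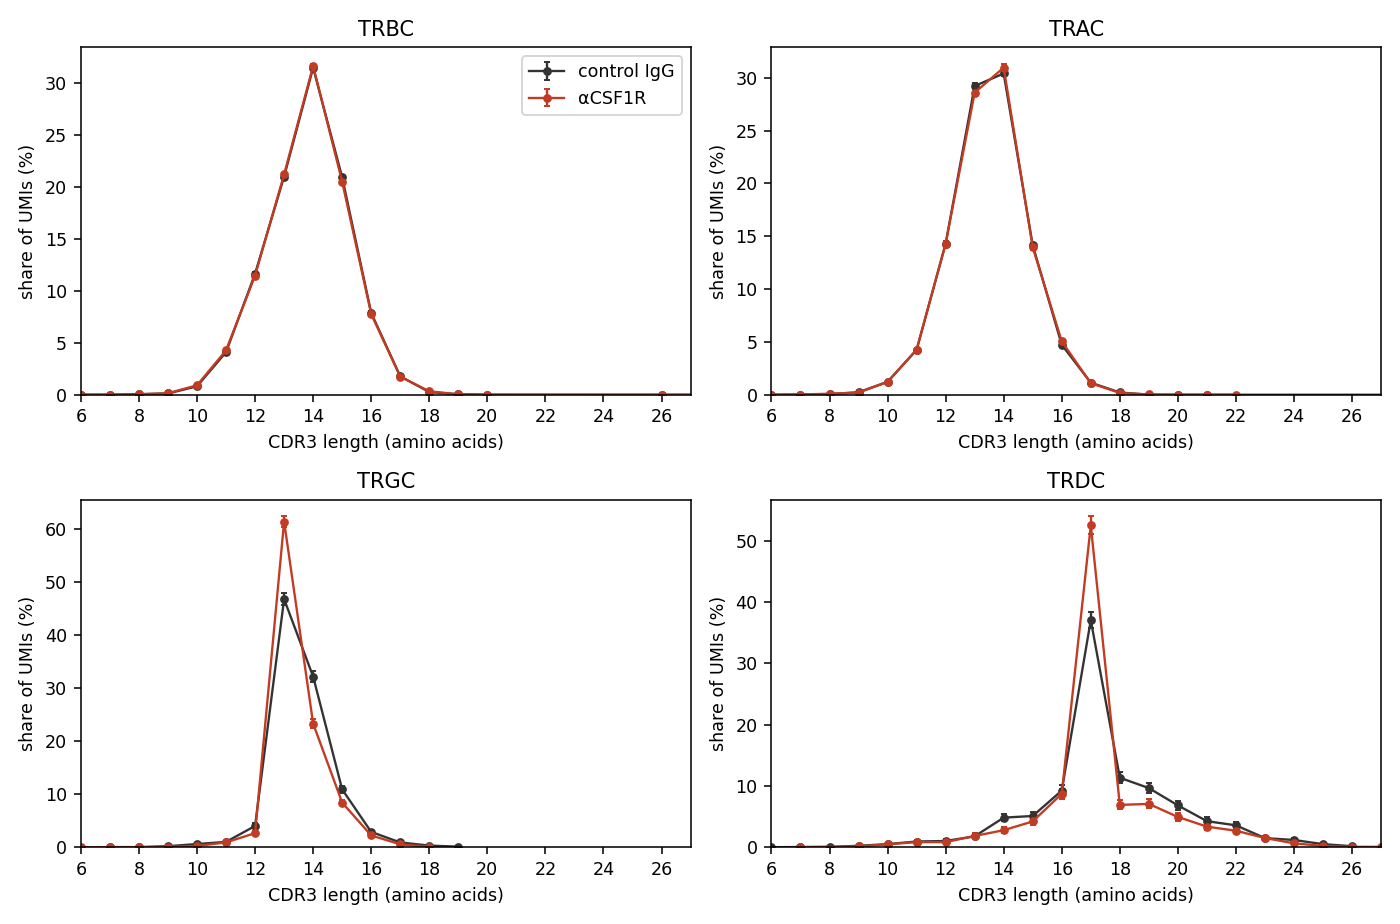
Share of UMIs (%) by CDR3 length in residues for the 4 chains in the tdLN libraries of αCSF1R and control IgG. Rare lengths outside the axis are not drawn. The TRBC and TRAC curves lie on each other with a peak at 14 residues, whereas the peaks of TRGC at 13 residues (61.3% against 46.7%) and of TRDC at 17 residues (52.5% against 37.1%) are higher with αCSF1R.

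The widest differences in V usage were in the γδ chains. γδ T cells with the Vγ segment Trgv6 or Trgv5 arise in waves before birth, when bases are rarely added at the joints. They settle in mucosa and in skin, and both carry a δ chain of Trdv4 with Trdj2. In the tdLN libraries 1 γ and 1 δ clonotype of this kind dominated their chains. Their CDR3 sequences are shown because the results on γδ usage turn on them, beside the corresponding Trgv5 sequence. The sequences are as deposited, with bases in capitals where neither the germline V nor the germline J segment of GRCm38 accounts for them.

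Trgv6 with Trgj1: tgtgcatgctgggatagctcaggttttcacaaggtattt
Trgv5 with Trgj1: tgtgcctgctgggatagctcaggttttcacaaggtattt
Trdv4 with Trdj2: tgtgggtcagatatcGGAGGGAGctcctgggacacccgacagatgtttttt

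The canonical Trgv6 sequence is germline throughout (Trgv6 on chromosome 13 at 19190356 to 19190929, Trgj1 at 19210343 to 19210402), and the canonical Trdv4 sequence has 8 bases outside V and J (Trdv4 on chromosome 14 at 54074905 to 54075515, Trdj2 at 54136779 to 54136837). The Trgv6 clonotype had 4741 of 9935 TRGC UMIs with αCSF1R, 47.7% (46.7% to 48.7%), and 2556 of 7731 with control IgG, 33.1% (32.0% to 34.1%). The ratio was 1.44 (1.39 to 1.5), and 1.35 with at least 7 reads (46.0% and 34.0%). The Trdv4 clonotype had 2018 of 4480 TRDC UMIs with αCSF1R, 45.04%, and 1359 of 4855 with control IgG, 27.99%. Its ratio was 1.61 (1.52 to 1.70), and 1.76 with at least 7 reads (47.1% and 26.8%). Of all UMIs of the library, the Trgv6 clonotype made up 1.63% and 1.07% and the Trdv4 clonotype 0.694% and 0.569%. Both clonotypes were listed in 12 of the 12 libraries of the series. BF10 and IL-10-Fc stood between αCSF1R and control IgG, at 45.5% and 35.9% for the Trgv6 clonotype and at 36.7% and 30.2% for the Trdv4 clonotype. With at least 7 reads, BF10 (46.2%) was no longer below αCSF1R (46.0%) for the Trgv6 clonotype, and IL-10-Fc stood at 36.0%. The 4 libraries thus split for the Trgv6 clonotype as the read coverage does, and the part of read coverage was not tested.

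**Figure D4:**
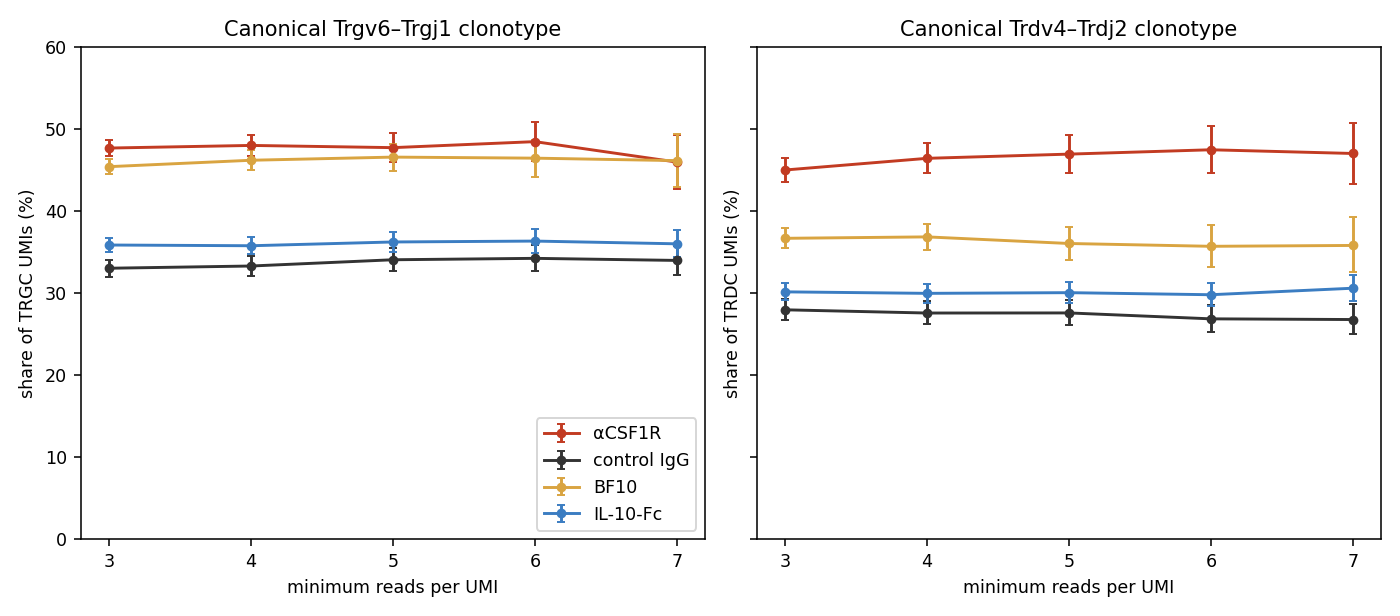
Share of TRGC UMIs (%) taken by the canonical Trgv6 clonotype and of TRDC UMIs (%) taken by the canonical Trdv4 clonotype, against the minimum number of reads per UMI, in the 4 tdLN libraries with 95% Wilson intervals. The αCSF1R points lie above the control IgG points at each minimum, and for Trdv4 (45.04% against 27.99% at 3 reads, 47.1% against 26.8% at 7 reads) also above those of BF10 and IL-10-Fc.

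In the spleen the same clonotypes were rare, at 3.23% with αCSF1R and 2.47% with control IgG for Trgv6 (ratio 1.31, 0.964 to 1.78) and 2.30% and 1.33% for Trdv4 (1.72, 1.11 to 2.68). In the tumor the Trgv6 clonotype took 1.29% and 2.68% (0.479, 0.356 to 0.644), a ratio on the other side of 1. The Trdv4 clonotype took 63.1% and 31.7% of tumor TRDC UMIs, beside 1095 and 681 tumor UMIs of the Trgv5 sequence. In the tdLN that Trgv5 clonotype had 104 UMIs with αCSF1R and 33 with control IgG (2.45, 1.66 to 3.62), but 5 and 15 UMIs with at least 7 reads (1.03).

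By segment, 4 of the 7 TRGV segments (57.1%) and 7 of the 9 TRDV segments (77.8%) passed the fold limit. Trgv6 took 49.7% of TRGC UMIs with αCSF1R and 34.1% with control IgG (1.46), and Trgv5 took 1.64% and 0.957% (1.71, and 1.03 with at least 7 reads). Trgv2 took 18.4% and 29.7% (0.622), Trgv1 took 7.02% and 9.25% (0.759), and Trgv4, Trgv3 and the reads left between Trgv1 and Trgv3 had ratios from 0.865 to 0.902. Trdv4 took 52.8% of TRDC UMIs with αCSF1R and 34.0% with control IgG (1.55). The other 8 TRDV segments were all below 1, from 0.574 for Trav15d-1-dv6d-1, 0.621 for Trav13-4-dv7 and 0.648 for Trav15-1-dv6-1 through Trdv5 (0.706), Trdv2-2 (0.756) and Trav15d-2-dv6d-2 (0.770) to Trav14d-3-dv8 (0.829) and Trdv1 (0.890). Shares of a chain sum to 100%, so that a larger Trgv6 or Trdv4 share lowers the others.

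The 2 canonical clonotypes were therefore left out and the shares taken of the remaining UMIs. Then 3 of 7 TRGV segments and 2 of 9 TRDV segments passed the fold limit. Trgv2 had a ratio of 0.796 (0.759 to 0.835) among the remaining UMIs, and 0.925 with at least 7 reads. The remaining Trgv6 clonotypes, 201 UMIs with αCSF1R and 77 with control IgG, had a ratio of 2.60, but one of 1.12 (0.512 to 2.45) with at least 7 reads. Trgv5 (163 and 74 UMIs) had ratios of 2.19 (1.67 to 2.88) and 1.26 under the 2 minimums. The remaining Trdv4 clonotypes (347 and 290 UMIs) had ratios of 1.70 (1.47 to 1.97) and 1.82 (1.34 to 2.47), and Trav15d-1-dv6d-1 had 0.753 and 0.675. Outside the canonical clonotypes, the higher share of Trdv4 and the lower one of Trav15d-1-dv6d-1 thus passed the fold limit at both read minimums. The higher share of Trgv5 passed it only narrowly with at least 7 reads (1.26). Among all TRGC UMIs its ratio at that minimum was 1.03 (0.506 to 2.10).

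The γδ clonotypes next in abundance had far fewer UMIs. The Trgv4 clonotype next in abundance is germline as well (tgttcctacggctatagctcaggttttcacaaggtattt) and had 207 UMIs with αCSF1R and 136 with control IgG (1.18, 0.956 to 1.47). A Trgv2 clonotype with Trgj2 had 108 and 130 UMIs (0.646, 0.502 to 0.833), and its ratio was 0.962 (0.531 to 1.74) with at least 7 reads. A second Trgv4 clonotype had 67 UMIs in each library, with a ratio of shares of 0.778 (0.555 to 1.09). In TRDC, a Trdv4 clonotype with Trdj1 had 113 and 131 UMIs (0.935, 0.729 to 1.2), and another 2 had 15 and 22 and 13 and 18 UMIs, with intervals that held 1. One Trdv4 clonotype with Trdj1 had 26 UMIs with αCSF1R and was listed in no other library of the series, at least 9.39-fold higher than control IgG when a count of 0 is taken to allow up to 3 UMIs.

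Semi-invariant α chains mark innate-like αβ T cells. Invariant NKT (iNKT) cells recognise lipids on CD1d with Trav11 joined to Traj18, and mucosal-associated invariant T (MAIT) cells recognise vitamin B metabolites on MR1 with Trav1 joined to Traj33. The iNKT chain was counted as Trav11 with Traj18 and a CDR3 of 15 residues. It made up 251 of 65745 TRAC UMIs with αCSF1R, 0.382% (0.337% to 0.432%), and 569 of 101598 with control IgG, 0.560% (0.516% to 0.608%). The ratio was 0.682 (0.588 to 0.791), and 0.740 (0.477 to 1.15) with at least 7 reads. BF10 stood at 0.318% and IL-10-Fc at 0.356%, below both, and in the spleen the shares were 0.579% with αCSF1R and 0.566% with control IgG. In the tumor the chain had 5 UMIs with αCSF1R and 91 with control IgG (0.0211% and 0.114%; 0.186, 0.0755 to 0.457). The most frequent nucleotide forms of this chain encode the same protein and are printed for the base at which they differ.

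iNKT form with the most UMIs: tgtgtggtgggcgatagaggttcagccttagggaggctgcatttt
iNKT form second in UMIs: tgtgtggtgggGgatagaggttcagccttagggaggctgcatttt
iNKT form after the first and second: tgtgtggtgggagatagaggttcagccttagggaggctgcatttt

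The first form had 76 UMIs with αCSF1R and 205 with control IgG, the second 47 and 106, and the last 45 and 88, so that the 3 forms kept the same order in both libraries. The protein sequence that they share took 80.5% of iNKT UMIs with αCSF1R and 80.3% with control IgG. It was encoded by 6 nucleotide forms with αCSF1R and by 9 with control IgG. The MAIT chain was counted as Trav1 with Traj33 and a CDR3 of 12 residues. It had 12 UMIs with αCSF1R and 74 with control IgG, or 0.0183% and 0.0728% (0.251, 0.136 to 0.461). At least 7 reads left 1 and 30 of these UMIs (0.223, 0.0304 to 1.63). The spleen had 9 and 1 (9.42, 1.19 to 74.3). BF10 stood at 0.0143% and IL-10-Fc at 0.0350%, so that the control library had the highest share of both semi-invariant chains among the 4 tdLN libraries.

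Clonotypes with at least 10 UMIs were the most abundant part of each chain. In TRBC there were 728 with αCSF1R, holding 7.07% of UMIs (6.96% to 7.18%), and 396 with control IgG, holding 5.90% (5.77% to 6.03%). In TRAC there were 238 with αCSF1R, 6.29% of UMIs, and 593 with control IgG, 11.4%. The 2 chains differed in opposite directions, in step with their UMI totals. At the smaller total of each chain, the expected numbers were 348 against 396 in TRBC and 238 against 287 in TRAC, so that both chains then had fewer such clonotypes with αCSF1R. Counting clonotypes of at least 0.01% of the chain gave 209 and 225 in TRBC and 519 and 507 in TRAC. With at least 7 reads per UMI, 12 and 85 clonotypes reached 10 UMIs in TRBC and 1 and 100 in TRAC, where 10.4% and 40.9% of TRBC UMIs and 8.31% and 36.0% of TRAC UMIs had that many reads. TRGC had 74 and 79 clonotypes with at least 10 UMIs, of which 67 and 73 were listed in the other library, and TRDC had 11 and 9. Of all TRGC clonotypes, 19.8% with αCSF1R and 26.7% with control IgG were listed in the other library.

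**Figure D5:**
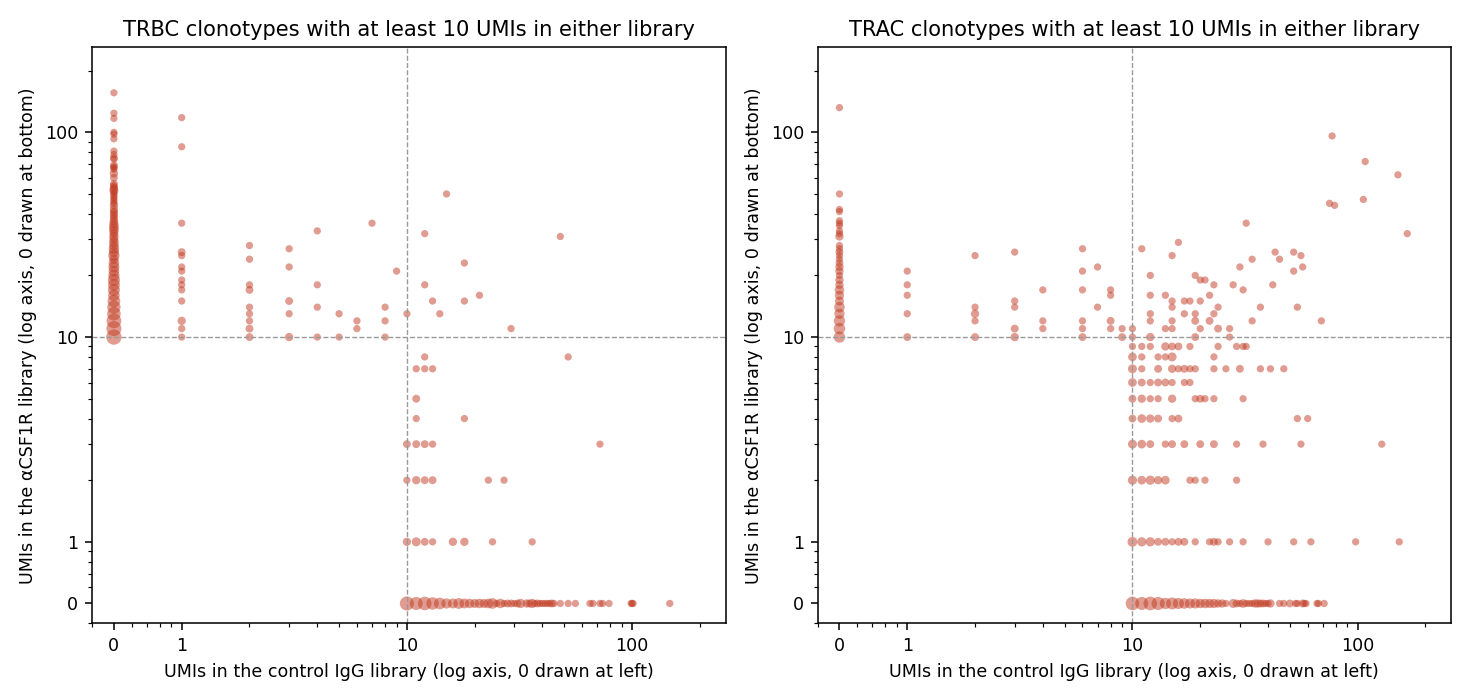
UMIs in the αCSF1R library against UMIs in the control IgG library (log axes, with a place for 0 and dashed lines at 10 UMIs) for TRBC and TRAC clonotypes with at least 10 UMIs in either library, larger points standing for more clonotypes. Most TRBC clonotypes lie at 0 in the other library (61 of 728 and 57 of 396 were listed there), and more TRAC clonotypes lie inside the plot (106 of 238 and 254 of 593). Of all clonotypes, 2.67% and 5.65% in TRBC and 10.1% and 9.40% in TRAC were listed in the other library.

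Most abundant TRBC clonotypes were not listed in the other tdLN library. Those listed there were 8.38% of the abundant ones with αCSF1R and 14.4% with control IgG, against 2.67% and 5.65% of all TRBC clonotypes. Of the 728 with αCSF1R, 276 were listed in at least 1 of the other 11 libraries of the series, and of the 396 with control IgG, 168 were. No share over all clonotypes is given for these last numbers. The 5 with the most UMIs in each library are given by V and J segment, and the first of each library is printed beside recurrent germline clonotypes, to set a junction with added bases beside one with none.

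TRBC, αCSF1R, Trbv3 with Trbj2-7: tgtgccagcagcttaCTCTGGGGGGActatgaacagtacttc
TRBC, control IgG, Trbv17 with Trbj2-7: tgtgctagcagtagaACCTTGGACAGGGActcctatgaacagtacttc
TRBC, both, Trbv17 with Trbj1-1: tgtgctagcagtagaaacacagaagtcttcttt
TRBC, αCSF1R, Trbv16 with Trbj2-4: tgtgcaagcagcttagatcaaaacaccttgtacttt
TRAC, both, Trav14-2 or Trav14n-2 with Traj22: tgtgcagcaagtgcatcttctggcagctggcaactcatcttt

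The Trbv3 clonotype had 156 UMIs with αCSF1R, 0.0741% of TRBC, and 0 with control IgG, where a count of 0 allows up to 0.00241% (at least 30.7-fold higher). A second Trbv3 clonotype with Trbj2-7 (124 UMIs), one of Trbv5 with Trbj1-4 (117 UMIs) and one of Trbv29 with Trbj1-6 (100 UMIs) were also at 0 in the control library. Of these 4, the Trbv29 clonotype was listed in another library, the spleen of αCSF1R mice, with 6 UMIs. The germline Trbv16 clonotype had 118 UMIs with αCSF1R and 1 with control IgG (69.7, 9.74 to 499.2), and was listed in 7 of the 12 libraries. With at least 7 reads it had 9 and 1 UMIs (20.9, 2.65 to 165.3). In the control library, the Trbv17 clonotype with Trbj2-7 had 147 UMIs, 0.118%, and 0 with αCSF1R (at least 82.9-fold higher with control IgG). It was listed with 5 UMIs in the tumor of control mice. The next 4 control clonotypes, 2 of Trbv3 with Trbj2-7 (101 and 99 UMIs), 1 of Trbv5 with Trbj2-4 (100 UMIs) and 1 of Trbv19 with Trbj2-1 (79 UMIs), were all at 0 with αCSF1R.

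Only 11 TRBC clonotypes had at least 10 UMIs in both libraries. The 5 with the most UMIs were Trbv5 with Trbj2-5 (31 UMIs with αCSF1R and 48 with control IgG), Trbv3 with Trbj1-1 (50 and 15), Trbv19 with Trbj1-4 (32 and 12), Trbv3 with Trbj2-7 (23 and 18) and the germline Trbv17 with Trbj1-1 (11 and 29). The last had a ratio of 0.224 (0.112 to 0.449) and was listed in 11 of the 12 libraries, with 199 to 924 UMIs in each of the 4 tumors. With at least 7 reads it had 2 and 15 UMIs, and the interval of its ratio held 1 (0.310, 0.0710 to 1.36). By V segment, Trbv19 was the most frequent among abundant TRBC clonotypes with αCSF1R (102 of 728, 14.01%, 11.7% to 16.7%), against 40 of 396 with control IgG (10.1%, 7.51% to 13.5%). Trbv3 led with control IgG (58 of 396, 14.6%, 11.5% to 18.5%), against 88 of 728 with αCSF1R (12.1%, 9.92% to 14.7%). The intervals overlapped for both segments.

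Abundant TRAC clonotypes recurred more often: 106 of the 238 with αCSF1R were listed with control IgG, and 254 of the 593 with control IgG were listed with αCSF1R. These were 44.5% and 42.8%, against 10.1% and 9.40% of all TRAC clonotypes. The clonotype with the most UMIs with αCSF1R, Trav14d-1 with Traj23, had 132 UMIs and 0 with control IgG (at least 68.0-fold higher), and one of Trav8-1 with Traj12 had 50 and 0. The other leading ones were present on both sides. Trav10 with Traj43 without added bases had 96 UMIs with αCSF1R and 77 with control IgG, while the same CDR3 assigned to its near copy Trav10n had 1 and 153. Summed over all V regions this CDR3 had 104 and 238 UMIs (ratio 0.675, 0.536 to 0.850), so that the direction depends on how the V copies were told apart. The germline Trav14 with Traj22 clonotype had 72 and 108 UMIs (1.03, 0.765 to 1.39) and was listed in all 12 libraries. A second Trav10 clonotype with Traj43 had 32 and 166 UMIs (0.298, 0.204 to 0.435), with 0 in BF10 and 198 in IL-10-Fc, and Trav7d-2 with Traj13 had 3 and 128 (0.0362, 0.0115 to 0.114). With at least 7 reads the second Trav10 clonotype had 3 and 59 UMIs, and the interval of its ratio held 1 (0.340, 0.107 to 1.08). The Trav7d-2 clonotype then had 0 and 47.

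Abundant TRBC clonotypes were found in the spleen and the tumor of the same treatment more often than in those of the other treatment. This did not hold for the αCSF1R clonotypes of TRAC in the tumor, of TRGC in the spleen and the tumor, or of TRDC in the tumor. Nor did it hold for the control clonotypes of TRDC in the spleen. Of the 728 TRBC clonotypes with αCSF1R, 133 (18.3%) were listed in the αCSF1R spleen and 30 (4.12%) in the control spleen. Of the 396 with control IgG, 88 (22.2%) were listed in the control spleen and 20 (5.05%) in the αCSF1R spleen. Whether the same mice gave node and spleen is not stated. In tumors the numbers were 34 (same treatment) and 12 (other treatment) for αCSF1R, and 29 and 6 for control IgG. For TRAC the 2 spleens differed less, with 118 and 94 of the 238 αCSF1R clonotypes and 272 and 212 of the 593 control clonotypes. In tumors, 26 of the αCSF1R TRAC clonotypes were listed with the same treatment and 41 with the other, against 118 and 30 of the control ones. The tumor libraries differed in size, with 2430 TRAC clonotypes with αCSF1R and 9468 with control IgG. The part of library size in the numbers of this paragraph was not tested, and the shares over all tdLN clonotypes are not given here. For TRGC with αCSF1R, 54 of 74 were listed in the αCSF1R spleen and 56 in the control spleen, and with control IgG 57 of 79 were listed in the control spleen and 53 in the αCSF1R spleen. In tumors the TRGC numbers were 20 (same treatment) and 34 (other treatment) with αCSF1R, and 35 and 20 with control IgG. For TRDC, 2 of the 11 αCSF1R clonotypes were listed in the αCSF1R tumor and 4 in the control tumor. Of the 9 control TRDC clonotypes, 3 were listed in each spleen. Abundant clonotypes had fewer bases outside the germline segments than those with 1 UMI, with a mean of 8.957 against 10.03 in TRBC with αCSF1R and 8.997 against 10.18 with control IgG. In TRAC, 31.5% of abundant clonotypes with αCSF1R and 28.2% with control IgG had no such base, against 8.06% and 7.67% of those with 1 UMI.

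Clonotypes of any abundance were shared to an extent that depended on the chain. In TRBC, 4044 clonotypes were listed in both libraries, 2.67% of those with αCSF1R and 5.65% of those with control IgG, with 3.83% and 6.80% of UMIs. In TRAC, 4377 were listed in both, 10.1% and 9.40% of clonotypes, with 16.2% and 16.6% of UMIs. In TRGC, 343 shared clonotypes held 76.3% of UMIs with αCSF1R and 71.6% with control IgG. In TRDC, 40 shared clonotypes held 50.2% and 33.9%, most of it the canonical Trdv4 clonotype. The αCSF1R library lists more TRBC clonotypes, 78.6% of them with 1 UMI against 56.2% in the control library. Shared clonotypes had a median of 6 bases outside the germline segments in TRBC, against 10 in clonotypes of either library that were not shared, and of 1 against 3 in TRAC.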

How the data were processed

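CD8 bead-selected cells of 3 mice per treatment were pooled, and libraries were made from 100 ng of RNA with the QIAseq mouse TCR kit. The authors' processing in Qiagen's portal grouped reads by UMI and assigned V region, J region and CDR3, and the submitters' processing notes name mm10. The aligner and its settings are not given in the sources used here. The authors deposited UMI counts per clonotype, not normalized, with at least 3 and up to 7 reads per UMI, and a deposited fraction per clonotype that equals its share of UMIs (largest difference 4.52e-13). Of the 319095 clonotypes of both libraries, 205 held a residue left undetermined, while 0 were out of frame and 0 held a stop.

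Shares were taken within a chain, with 95% Wilson intervals, and ratios of shares with intervals on the log scale. With 1 library per treatment no test was made, and the fold limit (lower share at most 0.8 of the higher) was applied to segments with at least 200 UMIs over both libraries. A count of 0 was set to 3 UMIs for bounds, which is 0.00142% of TRBC UMIs with αCSF1R and 0.00241% with control IgG. Germline bases were matched from both ends of CDR3 to GRCm38 (GENCODE M21). Named were all TRBV, TRBJ, TRGV and TRDV segments with at least 200 UMIs, the 5 highest and 5 lowest TRAV families and TRAJ segments, the 5 TRBC and TRAC and 3 TRGC and TRDC clonotypes with the most UMIs per library, and clonotypes with at least 10 UMIs in both libraries (5 at most where over 10). The Trgv5 clonotype and the bases of the iNKT forms were chosen after their values were seen. The members and lists were chosen with earlier results of these data known.

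Alternatives were at least 7 reads per UMI, each clonotype counted once, clonotypes with at least 2 UMIs, leaving out clonotypes with at least 10 UMIs, rows with 1 V gene, a fold of 1.5, at least 50 UMIs per segment, equal UMI totals, and CDR3 as amino acids. Tested on simulated data first were the usage ratios with their intervals, the fold limit, the expected numbers at equal UMI totals and the germline matching, all for TRBC. The other steps were not tested in this way. Software was Python 3.11.15 with pandas 2.3.3 and numpy 2.4.6, which gave the intervals. The expected numbers at equal UMI totals came from scipy 1.17.1, and plots from matplotlib 3.10.9. The CDR3 protein sequences are not printed.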

Additional observations from a re-analysis of the deposited data

Results flagged for a closer look

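For 7 shares with at least 50 UMIs over both libraries in the other tissue, the tdLN ratio of αCSF1R to control IgG and that in the other tissue passed the fold limit in opposite directions. The MAIT chain, with 9 and 1 UMIs in the spleen (9.42, against 0.251 in the tdLN), was below that number. Each tissue has 1 library per treatment, and the difference between tissues was not tested. Trbv23 had a ratio of 1.29 in the tdLN and 0.219 in the tumor, where it took 0.256% of TRBC UMIs with αCSF1R and 1.17% with control IgG. Trbv24 had 0.693 in the tdLN and 4.23 in the tumor (0.281% and 0.0663%). Trav11 had 0.737 in the tdLN and 5.62 in the tumor (1.92% and 0.342% of TRAC UMIs), where its iNKT chains with Traj18 ran the other way (0.186). Trav2 had 0.781 in the tdLN and 1.28 in the tumor (0.258% and 0.201%). Trgv6 had 1.46 in the tdLN and 0.378 in the tumor (1.29% and 3.40% of TRGC UMIs), and its canonical clonotype with Trgj1 had 1.44 and 0.479. Trav15d-1-dv6d-1 had 0.574 in the tdLN and 1.254 in the spleen (8.20% and 6.54% of TRDC UMIs).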

How the results depend on the processing

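No paired analysis was possible because each treatment has 1 tdLN library, and no library could be left out. Of the TRBV segments, 2 passed the fold limit, and 4 did with at least 7 reads, 7 among clonotypes with at least 2 UMIs, 1 (Trbv24, with Trbv23 at 1.202) without clonotypes of at least 10 UMIs and 0 at 1.5-fold. The 3 TRAV families became 1 at 1.5-fold, and the 0 TRAJ segments became 1 with at least 7 reads and 6 with at least 2 UMIs. Counted once per clonotype, TRGV went from 4 to 2 and TRDV from 7 to 1 (2 without the canonical clonotype), with Trdv2-2 at 1.09 and Trav15d-2-dv6d-2 at 1.09 (1.01 without the canonical clonotype). The γδ alternatives were chosen after seeing the data. The difference in mean CDR3 length stayed under 0.1 residues, at 0.00710 in TRBC and 0.0265 in TRAC (7 reads), -0.0532 and -0.0163 (2 UMIs) and -0.00758 in TRAC (once). The ratio of clonotypes with at least 10 UMIs, 1.84 in TRBC, was 0.878 at equal totals, 0.929 at 0.01% and 0.141 with 7 reads, and in TRAC, 0.401, it was 0.830, 1.02 and 0.01. Shared UMIs with αCSF1R were 2.39% in TRBC and 11.8% in TRAC with 7 reads, 3.51% and 20.2% with 2 UMIs, and 13.0% and 27.4% by protein sequence. The ratio of γδ shares, 0.940, was 1.03 with 7 reads and 0.685 once, and that of iNKT UMIs, 0.682, was 0.904 once. The cause of these changes was not tested. Of 70 segments, 6 changed sides of 1 with 7 reads and 11 counted once.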
